A study of Rattus norvegicus with 9 samples.

Results

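The genes described here build cholesterol, sense it and move it through the cell, as measured in pancreatic islets of obese rats fed a cafeteria diet and of lean rats fed chow. The list held 34 genes of sterol synthesis, of SREBP and LXR control and of cholesterol transport. They were picked by name for their role, with earlier results of these data already known. Of these, 32 were measured, among 14217 measured genes in all, and Hmgcs1 and Npc1 are not analysed here because no probe set was annotated to either of them alone. A gene with several probe sets (groups of probes against 1 transcript) was represented by the one with the highest mean over the 9 arrays. The cafeteria group consisted of 5 samples from obese Wistar rats kept on the energy-rich cafeteria diet for 30 days. The chow group consisted of 4 samples from lean Wistar rats given standard chow, also for 30 days. Each sample was hybridised to 1 Affymetrix rat genome array, and the comparison asks which islet genes differ between the diets. The labels name no engineered allele, and no age, sex or number of animals per sample is used here.

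Cells make cholesterol from acetyl-CoA by way of mevalonate, farnesyl diphosphate, squalene and lanosterol. When sterol in the endoplasmic reticulum is low, the escort protein SCAP carries SREBP precursors to the Golgi for cleavage, and the released SREBP2 raises transcription of most enzymes of the route. When sterol is plentiful, INSIG proteins hold SCAP back, and oxysterols activate LXR, which raises transcription of the exporters ABCA1 and ABCG1 and of the ligase MYLIP (also called IDOL). In mouse beta cells, loss of ABCA1 is known to raise cholesterol and to impair insulin secretion.

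The hormone genes of islets were among the brightest signals, with Ins2 at 14.19 ± 0.029 in cafeteria and 14.19 ± 0.059 in chow samples (log2, SD, n = 5 and 4). Pairwise correlations over all probe sets were between 0.979 and 0.994. Cafeteria replicate 3 was extreme most often, with the highest of the 9 values in 19.8% of all genes and the lowest in 18.8%, against 5.73% to 14.24% and 6.68% to 13.4% for the other arrays. Values are log2 RMA values, and differences are cafeteria minus chow on that scale with limma's moderated standard error (SE). Over all genes no difference passed the test: limma's adjusted p, with Benjamini-Hochberg adjustment over 31042 probe sets, was 0.844 or more for every gene. These are whole-islet RNA samples, in which fewer cells of a type and less RNA per cell cannot be told apart. Levels are compared between samples and not between genes, since probe sets differ in brightness. Nothing in the labels says that the samples came from separate islet preparations, so the spread behind each p-value is that of these samples alone.

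Most enzymes of cholesterol synthesis averaged higher in cafeteria islets, while control, uptake and efflux genes went both ways. Of the 19 measured synthesis genes 16 averaged higher and 3 lower in cafeteria samples (84.2% higher, against 50.8% of all measured genes). Their median difference was 0.13, and that of all measured genes was 0.0025. At an unadjusted limma p under 0.05 stood 6 of the 19, Idi1, Fdps, Msmo1, Nsdhl, Hsd17b7 and Dhcr7, each of them higher. That is 31.6% of the synthesis genes, beside 3.42% of all genes that were higher at this level. None of the 32 genes passed the adjusted threshold of 0.05 (0% of all genes did, and 6.7% had an unadjusted p under 0.05 in either direction), so each difference below is a measured value that did not pass the test; limma's adjusted p was 0.844 to 0.992 across the 32. The count of 6 depended on single samples: it was 1 without chow replicate 4, 2 without chow replicate 3 and 3 without cafeteria replicate 4. In those fits the share of all genes at this level in either direction was 6.10%, 4.39% and 4.61%. Without cafeteria replicate 3, 16 of the 19 averaged higher with a median of 0.13, and 5 had an unadjusted p under 0.05, beside 4.63% of all genes. The median over the 19 was 0.084 without chow replicate 1, and each of the 6 genes averaged higher whichever single sample was left out. The 6 were picked from these same samples, where each was higher, so a kept sign is no separate evidence.

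**Figure D1:**
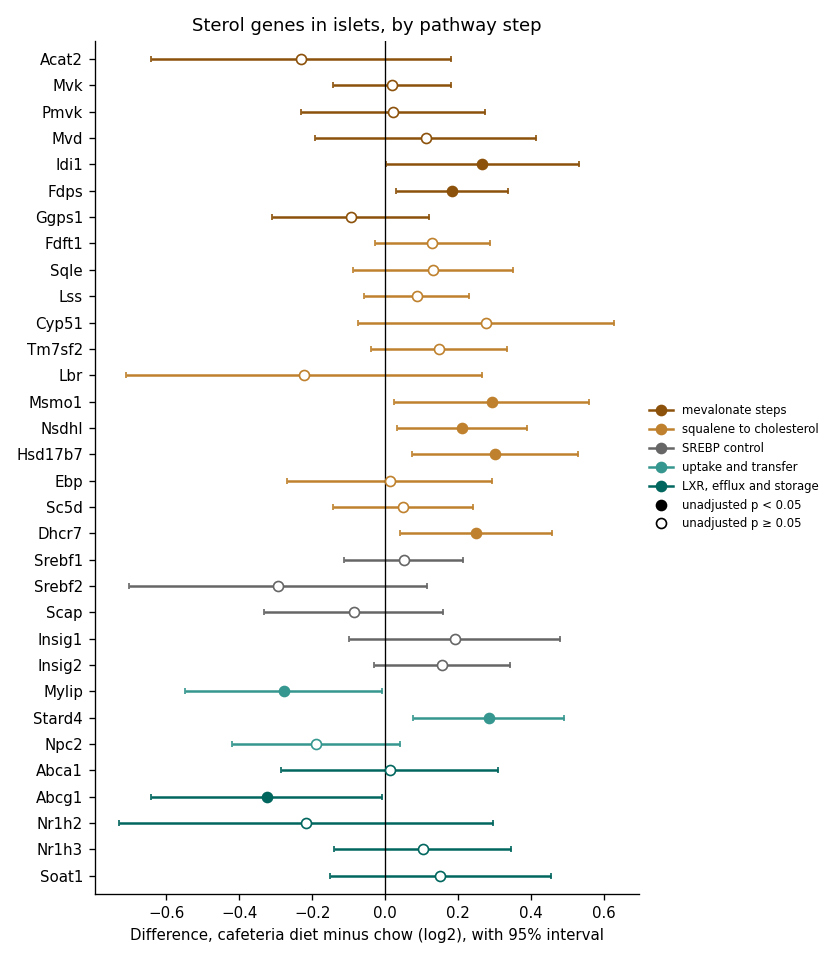
Difference between cafeteria and chow islets for the 32 measured sterol genes (horizontal axis, log2; points are differences, bars 95% intervals of limma; 5 cafeteria and 4 chow arrays), ordered and coloured by pathway step; filled points have an unadjusted p under 0.05. Of the 19 synthesis genes 16 lie right of 0, and the intervals of 9 of the 32 genes leave out 0.

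The first steps, to farnesyl diphosphate, differed from gene to gene. Acat2, the cytosolic thiolase that joins acetyl-CoA units, differed by -0.23 (SE 0.19), with values of 6.59 to 7.39 in cafeteria and 6.92 to 7.69 in chow samples. With single samples left out it differed by -0.33 to -0.068, nearest to 0 without chow replicate 3, its highest sample. The kinases Mvk and Pmvk differed by 0.019 (SE 0.073) and 0.021 (SE 0.11), and the sign of each turned with some single samples left out. For Mvk the 95% interval ran from -0.14 to 0.18, and 1 of its 2 dimmer probe sets had the opposite sign (-0.064, SE 0.065). Mvd, the decarboxylase that makes isopentenyl diphosphate, differed by 0.11 (SE 0.14) and ranged more widely in cafeteria samples (5.26 to 6.08) than in chow samples (5.49 to 5.66). Without cafeteria replicate 3 it differed by 0.22, and without cafeteria replicate 2 by 0.014.

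Idi1, the isomerase that supplies the allylic starter unit, had log2 values of 8.43, 8.86, 8.79, 8.80 and 8.99 in cafeteria samples, against 8.70, 8.53, 8.52 and 8.27 in chow samples, each in the order of its replicates. Cafeteria replicate 1 lay below 3 of the chow samples, and the other 4 lay above all of them. The difference was 0.27 (SE 0.12, 95% interval 0.0016 to 0.53), and a second Idi1 probe set differed by 0.26 (SE 0.14).

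Fdps, farnesyl diphosphate synthase, had values of 9.15, 9.21, 9.24, 9.21 and 9.26 in cafeteria samples, against 9.09, 9.14, 9.002 and 8.90 in chow samples. Every cafeteria value lay above every chow value. The cafeteria samples were closely grouped, at 9.22 ± 0.040, against 9.03 ± 0.11 in chow samples (SD, n = 5 and 4), a difference of 0.18 (SE 0.069, 95% interval 0.029 to 0.34). Ggps1, which extends farnesyl diphosphate to the protein anchor geranylgeranyl diphosphate and so leads away from sterols, differed by -0.094 (SE 0.097). Its 2 dimmer probe sets had the opposite sign, at 0.12 (SE 0.072) and 0.19 (SE 0.085), so no direction is given for it; with single samples left out the brightest differed by -0.15 to -0.039.

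From squalene to cholesterol 11 of 12 genes averaged higher in cafeteria islets, with a median of 0.14. Fdft1, squalene synthase, differed by 0.13 (SE 0.071), and cafeteria samples spanned 8.09 to 8.25 against 7.93 to 8.17 in chow samples. Its second probe set differed by 0.22 (SE 0.082) and in it every cafeteria sample lay above every chow sample. Sqle, the epoxidase that prepares squalene for ring closure, differed by 0.13 (SE 0.099), and by 0.049 without chow replicate 1, its lowest sample. Lss, which closes the rings to lanosterol, differed by 0.086 (SE 0.065), by 0.050 without chow replicate 4 and by -0.023 (SE 0.095) in its dimmer probe set. Cyp51, the lanosterol demethylase, differed by 0.28 (SE 0.16) but spread from 8.76 to 9.72 within the cafeteria group, whose samples were both the lowest and the highest of the 9. Without cafeteria replicate 3, the highest, Cyp51 differed by 0.16, and without cafeteria replicate 1, the lowest, by 0.40.

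Both sterol reductases of the next step were measured, and they differed in sign. Tm7sf2 differed by 0.15 (SE 0.084), with 4 of 5 cafeteria samples above every chow sample. Lbr, which is also a chromatin-binding protein of the inner nuclear membrane, differed by -0.22 (SE 0.22) and was dim, at 4.96 ± 0.31 in cafeteria and 5.18 ± 0.48 in chow samples (SD, n = 5 and 4). Without chow replicate 3 it differed by -0.027, and without chow replicate 1 by -0.38.

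Removal of the methyl groups next to the sterol's hydroxyl group is carried out by Msmo1, Nsdhl and Hsd17b7 in turn, and each of these 3 was among the 6 genes named above. Msmo1, the oxidase, had values of 9.13, 9.21, 9.74, 9.42 and 9.34 in cafeteria samples, against 9.24, 9.01, 9.11 and 8.95 in chow samples. Replicate 3 was the highest cafeteria sample, and chow replicate 1 lay above cafeteria replicates 1 and 2. The difference was 0.29 (SE 0.12, 95% interval 0.025 to 0.56).

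Nsdhl, the decarboxylase, stood at 7.16, 7.08, 7.43, 7.22 and 7.19 in cafeteria samples, against 7.07, 6.97, 7.04 and 6.94 in chow samples. The groups did not overlap, although cafeteria replicate 2 and chow replicate 1 were close. The difference was 0.21 (SE 0.080, 95% interval 0.033 to 0.39), and its second probe set differed by 0.17 (SE 0.12). Groups that did not overlap, with higher cafeteria values, were found for 2 of 19 synthesis genes, Fdps and Nsdhl, and for 1.33% of all genes; with lower cafeteria values they were found for 0 of the 32 sterol genes and for 0.837% of all genes. The first count was 4 without chow replicate 1, without chow replicate 2 or without cafeteria replicate 1. Groups with fewer samples separate more easily in any gene, and the share of all genes in those fits is not given here.

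Hsd17b7, the ketoreductase, showed values of 5.93, 5.74, 6.25, 6.005 and 5.93 in cafeteria samples, against 5.80, 5.67, 5.70 and 5.52 in chow samples. Only cafeteria replicate 2 lay within the chow range. Its difference of 0.30 (SE 0.10) was the highest of the 19 and amounts to 1.23-fold, with a 95% interval from 1.05 to 1.44. A second probe set differed by 0.20 (SE 0.15).

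Of the last 3 enzymes, Ebp, a sterol isomerase, differed by 0.012 (SE 0.13) and Sc5d, a desaturase, by 0.048 (SE 0.087), and neither kept its sign in every alternative. Their 95% intervals ran from -0.27 to 0.29 for Ebp and from -0.14 to 0.24 for Sc5d; without chow replicate 1 Ebp differed by -0.099. Dhcr7, which reduces the last sterol precursor to cholesterol, had values of 6.87, 7.07, 7.10, 7.12 and 6.87 in cafeteria samples, against 6.75, 6.98, 6.67 and 6.62 in chow samples. Chow replicate 2 lay above 2 cafeteria samples, and the other 3 chow samples lay below all of them. The difference was 0.25 (SE 0.094, 95% interval 0.041 to 0.46).

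**Figure D2:**
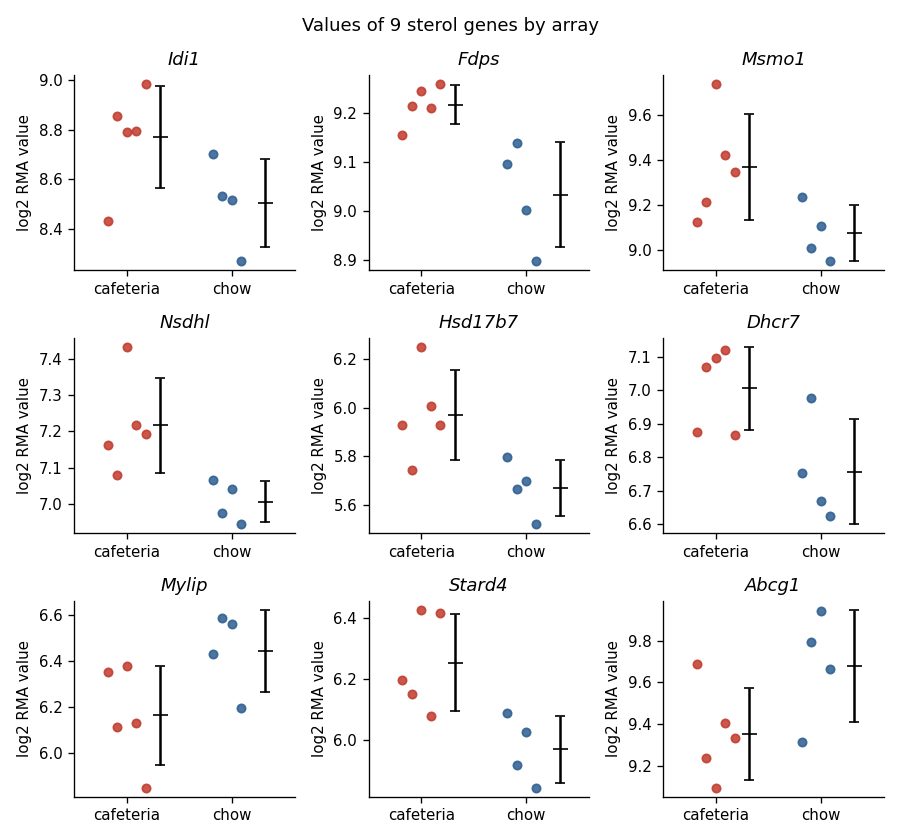
Log2 RMA values (vertical axes, a scale of its own for each gene) of the 9 sterol genes at an unadjusted p under 0.05 in cafeteria (n = 5) and chow (n = 4) islets; points are arrays, red and blue for the diets, and bars the mean and SD. Fdps and Nsdhl are the 2 genes whose groups do not overlap, and Mylip and Abcg1 are the 2 that averaged lower in cafeteria islets.

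The sequences before the start of these 6 genes are shown because their enzymes stand in 1 route and averaged higher together. They come from RefSeq promoters of the build GRCr8, which held 27 of the 32 measured genes, 16 of them synthesis genes. The genes not matched were Pmvk, Fdft1, Sqle, Stard4 and Abcg1. Capitals mark the CCAAT box (CCAAT, or ATTGG where it lies on the other strand), which the factor NF-Y binds and which often stands near sterol response elements. The windows lie at chr17:66547525-66547774 on the minus strand for Idi1, chr2:176804817-176805066 on the minus strand for Fdps and chr16:29746863-29747112 on the plus strand for Msmo1. Those of the other 3 lie at chrX:155817110-155817300 on the plus strand for Nsdhl, chr13:84722811-84723004 on the minus strand for Hsd17b7 and chr1:208444184-208444433 on the plus strand for Dhcr7. Each reads 5′ to 3′ towards the gene and stops before its outermost annotated start.
Idi1: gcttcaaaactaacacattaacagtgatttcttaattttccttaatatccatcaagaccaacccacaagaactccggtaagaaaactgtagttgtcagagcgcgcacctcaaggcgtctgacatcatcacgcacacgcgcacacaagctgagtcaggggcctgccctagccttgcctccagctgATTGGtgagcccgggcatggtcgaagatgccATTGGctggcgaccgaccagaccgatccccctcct
Fdps: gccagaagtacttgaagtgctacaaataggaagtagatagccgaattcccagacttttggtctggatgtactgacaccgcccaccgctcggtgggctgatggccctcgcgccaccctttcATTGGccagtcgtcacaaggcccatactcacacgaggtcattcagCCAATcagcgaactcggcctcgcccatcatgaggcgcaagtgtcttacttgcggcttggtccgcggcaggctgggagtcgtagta
Msmo1: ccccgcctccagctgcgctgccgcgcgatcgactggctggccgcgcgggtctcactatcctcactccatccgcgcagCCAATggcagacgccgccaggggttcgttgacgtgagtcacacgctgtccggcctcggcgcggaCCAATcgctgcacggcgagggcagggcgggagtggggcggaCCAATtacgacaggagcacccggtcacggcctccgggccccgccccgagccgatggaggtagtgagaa
Nsdhl: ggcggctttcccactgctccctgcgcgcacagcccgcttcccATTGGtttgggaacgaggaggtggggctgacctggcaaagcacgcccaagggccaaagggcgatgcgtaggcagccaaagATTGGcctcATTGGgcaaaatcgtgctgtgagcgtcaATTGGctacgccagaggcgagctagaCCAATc
Hsd17b7: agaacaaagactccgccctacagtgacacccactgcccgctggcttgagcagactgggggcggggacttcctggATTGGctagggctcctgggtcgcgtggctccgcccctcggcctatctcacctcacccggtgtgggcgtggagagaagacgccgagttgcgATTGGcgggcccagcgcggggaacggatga
Dhcr7: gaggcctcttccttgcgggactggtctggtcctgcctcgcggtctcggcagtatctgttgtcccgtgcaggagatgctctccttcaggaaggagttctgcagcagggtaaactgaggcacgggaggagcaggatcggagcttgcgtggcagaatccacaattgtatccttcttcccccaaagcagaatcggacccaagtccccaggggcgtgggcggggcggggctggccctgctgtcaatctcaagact

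In the windows printed, Nsdhl had 5 CCAAT matches, Msmo1 3, Idi1, Fdps and Hsd17b7 2 each and Dhcr7 0. The window of Mylip, cut in the same way and not printed, had 2, and Mylip averaged lower in cafeteria islets. Counted over the full 250 bases before the start that the table gives for each gene, without the shortening of the printed windows, 13 of 16 synthesis genes and 7 of 11 other measured members held a CCAAT match, against 34% of 33469 promoters and 36.3% of the 11700 promoters of genes on the array. The GC box bound by SP1 (GGGCGG, either strand) was matched in 13 of 16 synthesis genes and 8 of 11 other measured members. It was matched in 55.3% of the promoters of genes on the array. A match is a run of letters and no measured binding site, and its absence says only that these letters are not in this window.

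The genes that control the route had 0 of 5 members at an unadjusted p under 0.05, beside 6.7% of all genes in either direction. With 5 genes, a count of 0 is not apart from that share. Srebf2, which encodes the main activator of sterol synthesis, had values of 10.05, 9.81, 9.24, 9.73 and 9.51 in cafeteria samples, against 9.47, 10.21, 10.15 and 10.03 in chow samples. Chow replicate 1 and cafeteria replicates 3 and 5 were the 3 lowest, and the groups overlapped. The difference was -0.29 (SE 0.18, 95% interval -0.70 to 0.12), and it was -0.46 without chow replicate 1 and -0.19 without cafeteria replicate 3. The dim second probe set of Srebf2 had the opposite sign (0.050, SE 0.098). The 3 lowest samples were also those with the highest RNA quality measure, the mean difference between 3-prime and 5-prime probe sets of actin and Gapdh, where a higher value means less signal from 5-prime ends. It was 1.74 and 1.73 in cafeteria replicates 3 and 5 and 1.80 in chow replicate 1, and 1.21 to 1.53 in the other samples. With that measure as a covariate Srebf2 differed by -0.36 (SE 0.11, unadjusted limma p 0.0076, adjusted 0.346). In that fit 13.5% of all genes had an unadjusted p under 0.05 in either direction. Without chow replicate 1 the unadjusted limma p of Srebf2 was 0.017 (adjusted 0.560), beside 10.4% of all genes. With a score of dividing-cell genes as a covariate Srebf2 differed by -0.058 (SE 0.18). The same 3 samples were also the lowest for Nr1h2, Lbr and Ebp. With the RNA quality measure as a covariate these differed by -0.30 (SE 0.13), -0.28 (SE 0.18) and -0.029 (SE 0.091).

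Srebf1, which encodes the SREBP form known mainly for fatty acid synthesis and is itself a target of LXR, had values of 7.77, 7.62, 7.60, 7.68 and 7.53 in cafeteria samples, against 7.66, 7.66, 7.48 and 7.55 in chow samples. The groups overlapped, with a difference of 0.051 (SE 0.074), a 95% interval from -0.11 to 0.21 and the opposite sign in the dimmer probe set (-0.085, SE 0.17). Without chow replicate 3, its lowest sample, Srebf1 differed by 0.015. Scap, the escort of both SREBP forms, differed by -0.087 (SE 0.11), by -0.19 without chow replicate 1, by -0.016 without chow replicate 2 and by -0.043 without cafeteria replicate 3.

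Insig1, a target of SREBP as well as its brake, had values of 8.23, 8.50, 8.81, 8.37 and 8.35 in cafeteria samples, against 8.46, 8.41, 8.15 and 8.02 in chow samples. Cafeteria replicate 3 was highest, as it was in Msmo1, Nsdhl, Hsd17b7 and Cyp51, chow replicate 4 was lowest, and the groups overlapped. The difference was 0.19 (SE 0.13), and it was 0.10 without cafeteria replicate 3 and 0.11 without chow replicate 4. Insig2, its homologue, differed by 0.16 (SE 0.084) with 4 of 5 cafeteria samples above all chow samples, and by 0.23 (SE 0.097) in a second probe set.

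Uptake and transfer had 3 measured genes. Stard4, a cytosolic carrier of cholesterol and a known SREBP2 target, had values of 6.20, 6.15, 6.43, 6.08 and 6.42 in cafeteria samples, against 6.09, 5.92, 6.03 and 5.85 in chow samples. Cafeteria replicate 4 lay just below chow replicate 1, and the other 4 cafeteria samples lay above all chow samples. Its difference of 0.28 (SE 0.094, 95% interval 0.075 to 0.49) had the smallest p of the 32 genes. Of its 2 dimmer probe sets, 1 had the same sign (0.11, SE 0.076) and 1 the opposite (-0.18, SE 0.11), and the mean of all 3 differed by 0.070. Stard4 was the 1 gene of the 13 outside synthesis that was higher at an unadjusted p under 0.05 (7.69%, beside 3.42% of all genes).

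Mylip, the ubiquitin ligase that sends lipoprotein receptors to degradation, had values of 6.35, 6.11, 6.38, 6.13 and 5.85 in cafeteria samples, against 6.43, 6.58, 6.56 and 6.20 in chow samples. Chow replicate 4 lay within the cafeteria range and the other 3 chow samples lay above it. The difference was -0.28 (SE 0.12, 95% interval -0.55 to -0.0081). Npc2, which carries cholesterol released in lysosomes, differed by -0.19 (SE 0.10), with 4 of 5 cafeteria samples below every chow sample. Without cafeteria replicate 3 it differed by -0.12.

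On the side of export and storage, the exporter Abcg1 had values of 9.69, 9.24, 9.10, 9.41 and 9.34 in cafeteria samples, against 9.31, 9.79, 9.94 and 9.67 in chow samples. Cafeteria replicates 1, 4 and 5 lay within the chow range, and chow replicates 1 and 4 within the cafeteria range. The difference was -0.32 (SE 0.14), or 0.798-fold, with a 95% interval from 0.641 to 0.995. Of its dimmer probe sets 1 differed by -0.26 (SE 0.17) and 1 by 0.032 (SE 0.15). Mylip and Abcg1 were 2 of the 13 genes outside synthesis, 15.4%, beside 3.28% of all genes that were lower at this level.

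Abca1, the exporter that loads cholesterol onto apolipoprotein A-I, had values of 7.53, 7.37, 7.97, 7.57 and 7.86 in cafeteria samples, against 7.74, 7.37, 7.72 and 7.76 in chow samples. The ranges overlapped, and the brightest probe set differed by 0.013 (SE 0.13). The 3 other probe sets differed by -0.17 (SE 0.22), -0.26 (SE 0.26) and -0.20 (SE 0.16), so no direction is given for it. In chow replicate 2 it was 7.37, apart from the other 3 chow samples, and without that sample the brightest probe set differed by -0.080.

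The LXR genes were Nr1h3 (LXR alpha) and Nr1h2 (LXR beta). Nr1h3 was dim, with values of 4.39, 4.60, 4.61, 4.67 and 4.61 in cafeteria samples, against 4.66, 4.38, 4.19 and 4.67 in chow samples. All but 1 of the cafeteria values lay within the chow range, and the difference of 0.10 (SE 0.11) was 0.0065 without chow replicate 3 and reached 0.17 with another single sample left out. Nr1h2 differed by -0.22 (SE 0.23), by -0.36 without chow replicate 1 and by -0.089 without cafeteria replicate 5, and its dim second probe set differed by 0.058 (SE 0.084). Soat1, which esterifies cholesterol for storage, differed by 0.15 (SE 0.14), by 0.029 without chow replicate 4, by 0.24 without chow replicate 2 and by -0.080 (SE 0.39) in its dimmer probe set. Over the 8 genes of uptake, transfer, efflux and storage, 4 averaged higher and 4 lower, with a median of -0.089 (-0.056 without cafeteria replicate 2).

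**Figure D3:**
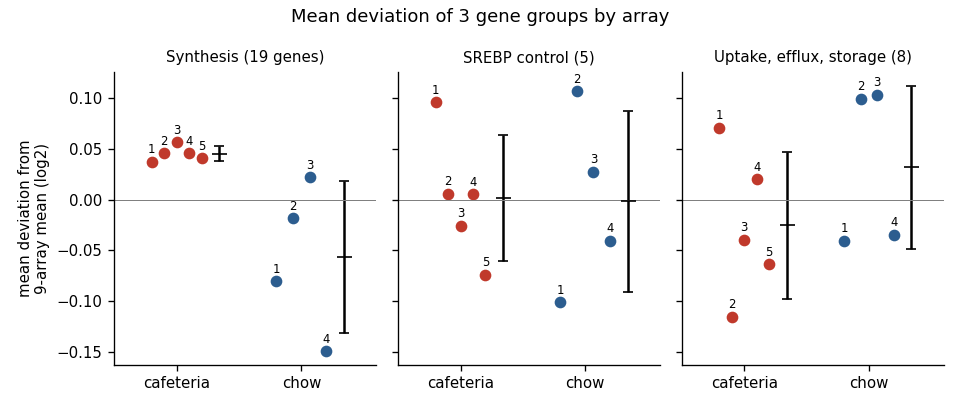
Mean deviation from the 9-array mean (vertical axis, log2) of the synthesis, control and uptake or efflux genes in each array of the cafeteria (left, n = 5) and chow (right, n = 4) groups; points are arrays with their replicate number, and bars the mean and SD. The synthesis genes lie between 0.037 and 0.056 in the cafeteria samples and between -0.15 and 0.022 in the chow samples, and the other 2 sets overlap between groups.

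Averaged over the 19 synthesis genes, the deviation from each gene's 9-array mean was 0.045 ± 0.0072 in cafeteria and -0.057 ± 0.075 in chow samples (SD, n = 5 and 4). The cafeteria samples were alike and the chow samples were spread out. In the cafeteria samples 13, 10, 11, 13 and 13 of the 19 genes were above their 9-array mean, against 4, 8, 7 and 4 in the chow samples. The cafeteria samples reached like averages by different genes: the steps to farnesyl diphosphate averaged -0.10 in cafeteria replicate 3 and 0.13 in cafeteria replicate 5, and those from squalene on 0.15 and -0.010. Chow replicate 4 held the lowest of the 9 values in 9 of the 19 synthesis genes and in 6 of the 6 at an unadjusted p under 0.05, and in 10.7% of all genes. Cafeteria replicate 3 held the highest value in 5 of the 19 and in 3 of the 6, and in 19.8% of all genes. The 6 were picked from these same samples as higher in cafeteria islets. Their lowest value thus tends to fall in a chow sample and their highest in a cafeteria sample. Their counts cannot be compared with the shares of all genes. The control genes averaged 0.0015 in cafeteria and -0.0019 in chow samples, and the uptake and efflux genes -0.026 and 0.032.

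**Figure D4:**
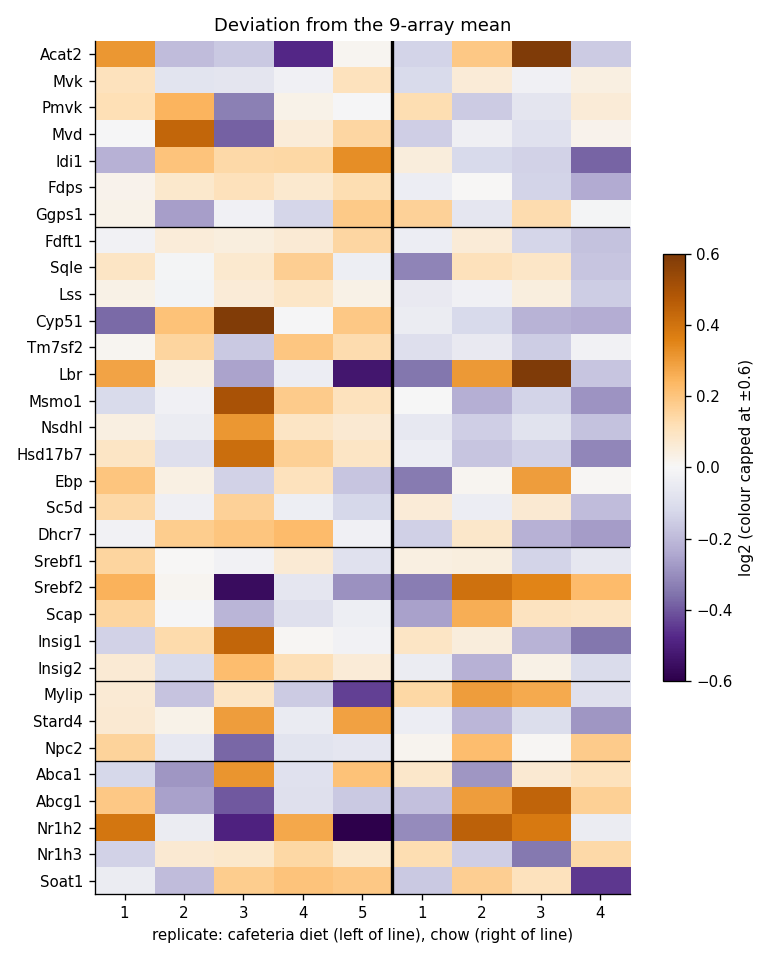
Deviation of each of the 32 sterol genes (rows, by pathway step) from its 9-array mean (colour, log2, capped at the ends of the scale) in the 5 cafeteria arrays (left) and the 4 chow arrays (right). Among synthesis genes chow replicate 4 is lowest in 9 of 19, and cafeteria replicate 3 has both high and low genes.

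Averages of other cell types' markers were also unlike between the groups, and their part in the sterol values was not tested beyond the covariate fits given here. Of 12 acinar genes 11 averaged higher, with scores (mean deviations over the list) of -0.99 to 0.72 in cafeteria and -0.74 to 0.16 in chow samples, and chow replicate 4 had the lowest chow score. Of 10 dividing-cell genes 9 averaged higher, with scores of -0.37 to 0.57 in cafeteria and -0.30 to -0.031 in chow samples. Of 5 genes of the other islet cells 0 averaged higher (-0.56 to 0.24 in cafeteria, 0.063 to 0.26 in chow samples), and of 6 endothelial genes 0 (-0.18 to 0.11 in cafeteria, 0.056 to 0.11 in chow samples). Beta cell genes went both ways, with 3 of 7 higher, as did stellate genes (3 of 7) and adipocyte genes (2 of 5). Of 13 macrophage genes 11 averaged lower (-0.27 to 0.14 in cafeteria, 0.027 to 0.22 in chow samples), and of 10 lymphoid genes 10 (-0.38 to -0.24 in cafeteria, -0.22 to 1.59 in chow samples). A single chow sample stood out in 2 lists, replicate 3 in the lymphoid one (1.59) and replicate 1 in the ductal one (1.07, against -0.56 to 0.24 in the other chow samples and -0.22 to -0.0038 in cafeteria samples).

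With the acinar score as a covariate 15 of the 19 synthesis genes were higher and 0 had an unadjusted p under 0.05. Across the 6 genes that had one, the median difference was then 0.21 with a median SE of 0.10, beside 0.26 and 0.099 without the covariate. With the dividing-cell score, a covariate added after the data were seen, the count was also 0, and the median difference of the 6 was 0.15 with a median SE of 0.11. With the macrophage score 14 of 19 were higher and 3 had an unadjusted p under 0.05, and with the RNA quality measure 15 were higher and 7 had one. The share of all genes with an unadjusted p under 0.05 in either direction was 5.65% with the acinar, 4.23% with the dividing-cell and 7.76% with the macrophage score, and 13.5% with the RNA quality measure, beside 6.7% without a covariate. All 6 genes averaged higher in each of these fits, with differences between 0.094 for Idi1 and 0.43, also for Idi1. Since the 6 were picked from these same samples for a difference above 0, that sign is no separate evidence.

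Of the 32 genes 18 had more than 1 probe set, which gave 25 further ones. Of these, 10 had the sign of the brightest probe set of their gene and 15 the opposite sign. Over all 31 probe sets of the synthesis genes 24 were higher in cafeteria islets, and 8 of the 12 that did not represent their gene were.

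**Figure D5:**
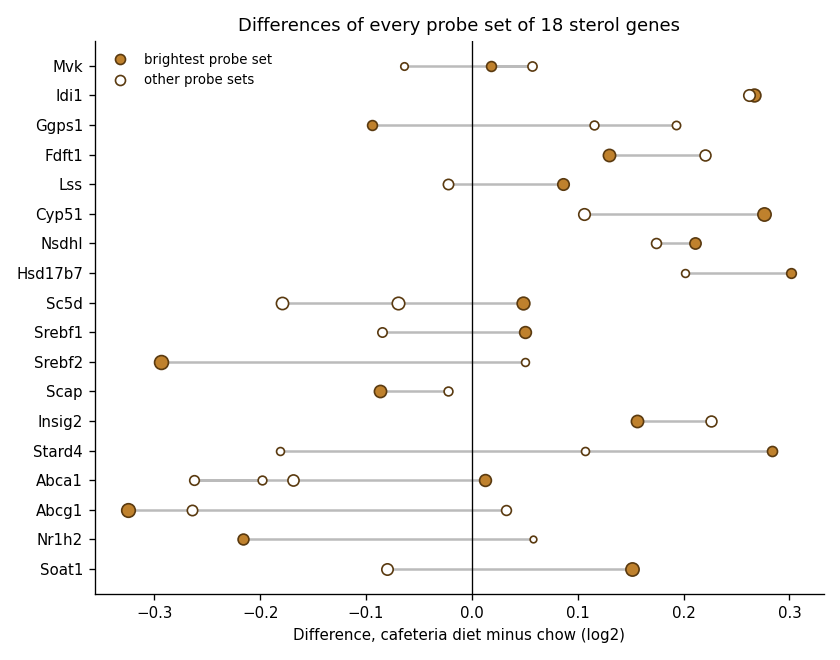
Difference between cafeteria and chow islets (horizontal axis, log2; n = 5 and 4 arrays) for every probe set of the 18 sterol genes with more than 1; filled points are the brightest probe set, open points the 25 others, larger points are brighter, and grey lines join the probe sets of a gene. Idi1, Nsdhl, Hsd17b7, Fdft1, Cyp51 and Insig2 have all their probe sets above 0, and Scap has all of its probe sets below 0. Mvk, Ggps1, Lss, Sc5d, Srebf1, Srebf2, Stard4, Abca1, Abcg1, Nr1h2 and Soat1 have probe sets on both sides.

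Neighbouring genes of sterol and SREBP biology, 65 in 6 lists, went both ways. Of the 58 measured, 34 averaged higher and 24 lower (58.6% higher, beside 50.8% of all genes). Their median was 0.024, and 0 passed the adjusted threshold. At an unadjusted limma p under 0.05 stood 4, each of them higher. That is 6.9%, beside 6.7% of all genes in either direction and 3.42% that were higher. The count of 4 is thus near the share of all genes in either direction. Tmem97 is a membrane protein known as the sigma-2 receptor and a regulator of NPC1. It averaged 7.06 ± 0.17 in cafeteria and 6.81 ± 0.029 in chow samples (SD, n = 5 and 4), a difference of 0.25 (SE 0.092). Of the 58 it was the 1 gene whose groups did not overlap, beside 1.33% of all genes with higher cafeteria values. The other 3 were Nus1, a subunit of the enzyme that makes dolichol's precursor (0.28, SE 0.12), Nceh1, a cholesteryl ester hydrolase (0.21, SE 0.089), and Sec13, a coat protein of the vesicles that leave the endoplasmic reticulum (0.19, SE 0.086).

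By list, 7 of 11 genes of the other branches of the mevalonate route were higher (median 0.058), and so were 3 of 5 genes in the list of Tmem97 and redox partners of the sterol enzymes (median 0.062). Of 7 genes of SREBP processing and turnover 4 were higher (median 0.040), and of 18 other genes of sterol transport and storage 10 (median 0.0077). The oxysterol enzymes had 1 of 5 higher (median -0.019). The lipogenic targets of SREBP1, genes of fatty acid synthesis, had 9 of 12 higher with a median of 0.049. Of these 12, 0 had an unadjusted p under 0.05, beside 6.7% of all genes in either direction.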

How the data were processed

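Islet RNA of 9 samples was measured on Affymetrix arrays, and the labels' diet and phenotype set the groups. The deposited table holds log2 values that were normalized by RMA, per the submitters' processing notes, which name R 2.7.0 and affy 2.0.1; the scanner files were not used here. RMA subtracts background, makes the arrays' distributions equal and summarises probes, so a shift shared by all genes would not be seen. Of 31099 probe sets 57 control ones were left out, and 31042 entered 1 limma fit (limma 3.58.1, R 4.3.3) of the 5 cafeteria against the 4 chow samples with no covariate; p-values were adjusted by Benjamini-Hochberg over all of them. The platform annotation gave 20826 probe sets 1 gene symbol, 436 several and 9780 none. The first named 14217 genes, each represented by its brightest probe set, and 20758 of those probe sets were found in the RefSeq gene table. The fit was also run on simulated data whose set changes were larger than any member's difference here. That run says nothing about finding differences of the size reported, and its outcome is not given.

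The members and gene lists were chosen with earlier results of these data known, so a pattern in them is a description. Named with the value of every array were members at an unadjusted p under 0.05 or with groups that do not overlap, and Srebf1, Srebf2, Insig1, Abca1 and Nr1h3; of the other lists, genes at an unadjusted p under 0.05. Replicates carry numbers in the order of deposit. No batch is named in the labels. Precision is set by having 9 arrays: the median SE over the tested probe sets was 0.098 on the log2 scale, and the median 95% interval reached 1.16-fold to either side. The alternatives were 2 other scalings, the mean of a gene's probe sets, brighter probe sets alone, an intensity trend with robust variances, 4 covariates and leaving out each sample. Tables and figures were made with Python 3.11.15, numpy 2.4.6, pandas 2.3.3 and matplotlib 3.10.9.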

Additional observations from a re-analysis of the deposited data

Results flagged for a closer look

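Of 64 sets of values (32 genes in each group), 2 held a sample whose distance to its nearest neighbour was large for the group's range by Dixon's criterion; chance gives about 1 in 20 such sets. Nr1h3, which encodes LXR alpha, was 4.39 in cafeteria replicate 1, with the next cafeteria sample at 4.60, a gap of 0.739 of the range. Abca1 was 7.37 in chow replicate 2, with the next chow sample at 7.72, a gap of 0.901 of the range.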

How the results depend on the processing

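No paired analysis was possible because the labels give the samples of the 2 groups no shared replicate numbers. No member passed the adjusted threshold under any of 18 alternatives, the smallest adjusted p being 0.332, and 23 of 32 members, 14 of the 19 synthesis genes among them, kept their sign in all 18; the arrays' number limits what could pass. The count of synthesis genes averaging higher was 13 to 16 with single samples left out and 14 to 16 otherwise. Those at an unadjusted p under 0.05 numbered 1 to 7 with single samples left out. They numbered 0 with the acinar score, 0 with the dividing-cell score (added after seeing the data) and 3 with the macrophage score as a covariate. The share of all genes at this level in either direction also moved, from 4.39% to 10.8% with single samples left out. With these scores it was 5.65%, 4.23% and 7.76%, in the same order. Groups that did not overlap numbered 2 to 4 with single samples left out, where fewer samples make this easier for any gene. The median of the synthesis genes was 0.084 to 0.16 with single samples left out and 0.11 to 0.15 otherwise. The median of the control genes turned to -0.0033 with the acinar score, -0.046 with the macrophage score and -0.017 with the mean of probe sets, was 0.10 with the dividing-cell score, and lay between 0.015 and 0.078 with single samples left out; apart from the dividing-cell score, Srebf1, the middle gene of that list, had the same values. The median of the uptake and efflux genes was -0.19 with brighter probe sets alone, -0.050 with the acinar score, -0.015 with the dividing-cell score and -0.10 to -0.056 with single samples left out. Signs turned with the acinar score for Sc5d (-0.023); with the macrophage score for Pmvk (-0.037), Ggps1 (0.0086), Ebp (-0.024) and Sc5d (-0.017); with the dividing-cell score for Scap (0.014), Abca1 (-0.15) and Nr1h2 (0.11); with RNA quality for Ebp (-0.029); and with the mean of probe sets for Ggps1 (0.071), Sc5d (-0.067) and Abca1 (-0.15). With single samples left out Mvk ran from -0.016 to 0.042, Pmvk from -0.038 to 0.11, Ebp from -0.099 to 0.11, Sc5d from -0.0081 to 0.084 and Abca1 from -0.080 to 0.085. The cause of these turns was not tested. The count of groups that do not overlap has no value under a covariate.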
